A study of Mus musculus with 14 samples.

Results

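The fast fibre contractile genes described here are 10 genes, Myh1, Myh2, Myh4, Myl1, Mylpf, Tnnt3, Tnni2, Tnnc2, Actn3 and Pvalb, found as the genes whose name equals one of these symbols in the deposited table of 54532 genes. Skeletal muscle fibres are grouped by the myosin heavy chain they make, and fast fibres contract more quickly and tire sooner than slow ones. In a sarcomere the myosin heavy chain is the motor, light chains sit on its lever arm, and the troponin complex on the thin filament lets calcium switch contraction on. Most troponin and light chain genes have a fast and a slow partner, and a fibre with mixed or changing myosins can hold several heavy chains at once.

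RNA was taken from soleus and gastrocnemius muscle of male FVB/N mice, in 14 libraries of poly-T selected messenger RNA. EC-Myc OE mice (OE) carry Tet-O-Myc, a human c-Myc transgene, together with the transactivator tTA under the endothelial Cdh5 promoter, and doxycycline was withdrawn at 4-6 weeks of age to switch the transgene on. Control littermates (CT) also carry Tet-O-Myc and lack tTA. Mice of each genotype ate a control diet (CTD, TD.08485) or a western diet (WD, TD.88137) for 20 weeks by the labels, while the study's results give 10 weeks for these libraries. The groups are CT-CTD (n = 3), CT-WD (n = 3), OE-CTD (n = 4) and OE-WD (n = 4). The study's legend gives other group sizes, 3 for CTD and 4 for WD, and the labels were followed. The transgene is driven in endothelial cells, so muscle fibres are not its target cells. Soleus is rich in slow fibres and gastrocnemius in fast ones, and the muscle of each library is not stated. The sample names of OE-CTD 1 to 3 share a number, as do those of OE-WD 1 to 4. Whether libraries with a shared number came from 1 animal is not stated, so the tests measure the spread between these libraries, which is not shown to be a spread between mice.

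Counted reads per library were between 21833839 and 28519159, with a median of 24931111.5. The labelled tissue was checked against its markers, and Acta1, Ckm, Des, Ttn and Myot, which mark skeletal muscle, together had at least 64302 CPM (counts divided by a library's size, which edgeR's TMM factors adjust) in every library. A pair of libraries stood apart from the rest in mitochondrial share and TMM factor. Mitochondrial genes took 14.9% of the counts in OE-CTD 4 and 14.5% in OE-WD 4, against 9.66% to 12.8% in the other 12 libraries. Their TMM factors were 0.888 and 0.899, against 0.945 to 1.07 in the other 12. The chi-square per degree of freedom, a measure of how far the counts of a pair of libraries differ, was 7.502 to 10.16 among OE-CTD 1 to 3 and 35.61 to 41.24 between these and OE-CTD 4. Among OE-WD 1 to 3 it was 8.166 to 14.49, and between these and OE-WD 4 it was 37.17 to 40.38. Pairs of CT libraries had 16.15 to 48.13, so the distances of OE-CTD 4 and OE-WD 4 lie in the range of CT pairs, while OE-CTD 1 to 3 and OE-WD 1 to 3 were closer to each other than any CT pair. Several members were high in both libraries, as was the summed CPM of 9 sarcomere genes of all fibres, Acta1 the most abundant, at 91373 and 90156 against 65190 to 79841 in the other 12. This does not hold for every muscle gene, since Myot had 1074 and 1056 CPM there against 1125 to 1585 in the other 12. Genotype fold changes of Myh1, Myh2, Myh4, Mylpf, Tnnt3 and Actn3 are given with and without these libraries.

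The members are among the most abundant transcripts of these libraries, and together took 9.1% to 11.3% of all counts. Levels of different genes are compared by the deposited FPKM, which divides counts by gene length and by a library total. The total that the FPKM imply was 79.93% of the counts in OE-CTD 4 and 80.83% in OE-WD 4. In the other libraries it was 86.09% to 97.97%. It was thus a scaled total, lowest where the TMM factor was lowest. Over the 14 libraries Tnnt3 had the highest mean of the members, 10511 ± 1230 FPKM (SD, n = 14), and ranked 6 of all genes. Myh4 (8908 ± 1442 FPKM) ranked 9, Pvalb (7426 ± 672) 11, Mylpf (6020 ± 772) 15 and Tnni2 (4371 ± 528) 18. Actn3 (2776 ± 527 FPKM) ranked 22, Myl1 (2540 ± 233) 24, Myh1 (627 ± 138) 62 and Myh2 (436 ± 99.7) 80. Tnnc2 stood far below the others at 0.932 ± 0.498 FPKM, rank 10781. In this order, Tnnt3 and Myh4, Myh4 and Pvalb, Pvalb and Mylpf, Actn3 and Myl1, and Myh1 and Myh2 are neighbours whose means differ by less than the sum of their SDs. These SDs are between libraries. Within each library Tnnt3 was above Myh4, Pvalb above Mylpf and Myh1 above Myh2. The order of Myh4 and Pvalb, and that of Actn3 and Myl1, changed between libraries. All 10 members passed the filter on low counts, as did 15458 genes in all.

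The members varied little between libraries, apart from Tnnc2. The ratio of the highest to the lowest CPM was between 1.29 for Myl1 and 2.05 for Myh2 in 9 members, and 5.88 for Tnnc2. Across libraries the 36 pairs of members without Tnnc2 had correlations of log2 CPM from -0.351 to 0.873, with a median of 0.571, and 34 were positive. The 9 pairs with Tnnc2 had correlations from -0.331 to 0.101. These correlations describe 14 libraries that share groups and library scaling.

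Each of the 10 members was compared between diets within a genotype and between genotypes within a diet, which asks whether western diet or endothelial c-Myc overexpression goes with another level of fast fibre transcripts. Counts were tested with edgeR over all genes, a gene is called at an adjusted p under 0.05, and log2 fold changes are positive where the first-named group is higher. Each group enters several comparisons, so that their values are not independent of each other. In bulk muscle, fewer fibres of a type and less of a transcript in each fibre cannot be told apart.

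No member was called in any of the comparisons. For CT-WD against CT-CTD, 0 of the 10 members were called, as were 0% of all tested genes, and 0 members passed an unadjusted p under 0.05, as did 7.28% of all genes. Deviations from group means were positively correlated between CT libraries with the same number, which are not shown to be pairs. With the replicate number as a block, 0 members were called (0.0841% of all genes) and 4 passed the unadjusted level (11.8% of all genes). These were Tnni2 (log2 fold change 0.20, adjusted p = 0.234), Mylpf (0.14, adjusted p = 0.319), Pvalb (0.12, adjusted p = 0.327) and Tnnc2 (-1.08, adjusted p = 0.323). For OE-WD against OE-CTD, 0 members were called (0.00647% of all genes, which is 1 gene) and 0 members passed the unadjusted level (4.2% of all genes). For OE-WD against CT-WD, 0 members were called (0.725% of all genes) and 1 member, Tnni2, passed the unadjusted level (16.9%). For OE-CTD against CT-CTD, 0 members were called (2.67%) and 1 member, Tnnc2, passed the unadjusted level (15.9%). For the diet by genotype interaction, the difference between the diet effects of both genotypes, 0 members were called (0% of all genes) and 0 passed the unadjusted level (5.92%). DESeq2 called 0 members in each test, in the same order, beside 0.215, 0.00359, 3.99, 5.35 and 0.0157% of the genes to which it gave an adjusted p. Limma on log2(FPKM + 1), which covers the 9 members other than Tnnc2, also called 0 in each, beside 0, 0.00944, 0.868, 2.88 and 0% of genes.

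Among the 9 members other than Tnnc2, log2 fold changes between CT-WD and CT-CTD ran from -0.09 for Myh2 to 0.21 for Tnni2, with 95% confidence intervals inside -0.53 to 0.53. Between OE-WD and OE-CTD they ran from -0.12 for Tnni2 to 0.18 for Myh4, with intervals inside -0.47 to 0.50. Between OE-WD and CT-WD they ran from -0.29 for Tnni2 to 0.34 for Myh2, inside -0.54 to 0.75. Between OE-CTD and CT-CTD they ran from -0.25 for Myh4 to 0.34 for Myh2, inside -0.59 to 0.75. Myh2 was the highest in both genotype comparisons and was called in neither, and its values rest in part on OE-CTD 4 and OE-WD 4. With both left out, its log2 fold change was 0.16 for OE-WD against CT-WD and 0.20 for OE-CTD against CT-CTD. That of Myh1 for OE-CTD against CT-CTD was 0.23, and 0.01 with both left out, and for OE-WD against CT-WD it was 0.13, and -0.03 with both left out.

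The median log2 fold change of all 10 members was 0.08 between CT-WD and CT-CTD, with 8 members higher and 2 lower, against a median of 0.01 over all tested genes. It was -0.01 between OE-WD and OE-CTD (5 higher, 5 lower), -0.09 between OE-WD and CT-WD (3 higher, 7 lower) and 0.02 between OE-CTD and CT-CTD (6 higher, 4 lower), against medians over all genes of 0.00, 0.01 and 0.00. For the interaction it was -0.08, with 2 members higher and 8 lower, against -0.01. With OE-CTD 4 and OE-WD 4 both left out, the median for OE-WD against CT-WD was -0.20, with 1 member higher and 9 lower, against 0.00 over all genes, and for OE-CTD against CT-CTD it was -0.03 (4 higher, 6 lower), against 0.00.

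Groups of libraries that do not overlap were counted as well. In log2 CPM the libraries of CT-WD and CT-CTD did not overlap for 1 member, Tnni2, as for 9.63% of all genes. No member separated OE-WD from OE-CTD (0 members, 4.08% of all genes), OE-WD from CT-WD (0 members, 11.6%) or OE-CTD from CT-CTD (0 members, 15.5%).

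Myh4 (ENSMUSG00000057003) encodes the heavy chain of type 2B fibres, the fastest in mouse limb muscle. Its level was 8950, 10243 and 8976 FPKM in CT-CTD 1 to 3 and 8324, 10602 and 9710 FPKM in CT-WD 1 to 3. It was 6926, 7011, 7371 and 10472 FPKM in OE-CTD 1 to 4 and 8446, 8358, 7736 and 11587 FPKM in OE-WD 1 to 4. In FPKM, OE-CTD 1 to 3 lay below every CT library, and OE-CTD 4 and OE-WD 4 lay above the highest CT-CTD library. The position of OE-CTD 4 depends on scaling. Of unscaled counts Myh4 took 5.04% in OE-CTD 4, below CT-CTD 1 (5.05%) and CT-CTD 2 (5.55%), and 5.63% in OE-WD 4. OE-CTD 1 to 3, at 3.92% to 4.31%, were still below every CT library, the lowest being CT-WD 1 (4.83%). Myh4 had a log2 fold change of -0.25 for OE-CTD against CT-CTD (adjusted p = 0.518). With OE-CTD 4 and OE-WD 4 both left out, a setting added once the data had been seen, it was -0.40 (standard error 0.0951, adjusted p = 0.0402), so that Myh4 became the 1 member called, with 3.61% of all genes called in this setting. Without OE-CTD 4 alone no member was called, and the smallest adjusted p of a member was 0.141. Each of these libraries has the highest Myh4 level of its own group, so leaving them out lowers both OE groups. Over the 11 settings tried for this comparison besides single libraries, the number of members called was 0 to 1.

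Between OE-WD and OE-CTD, Myh4 had the smallest unadjusted p of the members. Its log2 fold change was 0.18 (standard error 0.152, 95% confidence interval -0.14 to 0.50, adjusted p = 1). It was 0.33 without OE-CTD 4, where it passed the unadjusted level, and 0.05 without OE-WD 4, and was not called in either case. With the replicate block, whose number is not shown to pair these libraries, it was 0.18 (unadjusted p = 0.00109, adjusted p = 0.368 in edgeR's test).

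Myh1 (ENSMUSG00000056328) encodes the type 2X heavy chain and Myh2 (ENSMUSG00000033196) the type 2A heavy chain, the slowest of the fast ones. Myh2 had 396, 307 and 463 FPKM in CT-CTD 1 to 3 and 345, 315 and 440 FPKM in CT-WD 1 to 3. It had 482, 435, 422 and 635 FPKM in OE-CTD 1 to 4 and 395, 466, 369 and 632 FPKM in OE-WD 1 to 4. OE-CTD 4 and OE-WD 4 were the highest libraries, and the groups overlapped in each comparison. Myh1 had 472 to 703 FPKM in the CT libraries and 475 to 651 in OE-CTD 1 to 3 and OE-WD 1 to 3, and 955 and 863 FPKM in OE-CTD 4 and OE-WD 4. Myh1, Myh2 and Myh4 were thus all at their highest in OE-CTD 4 or OE-WD 4.

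**Figure D1:**
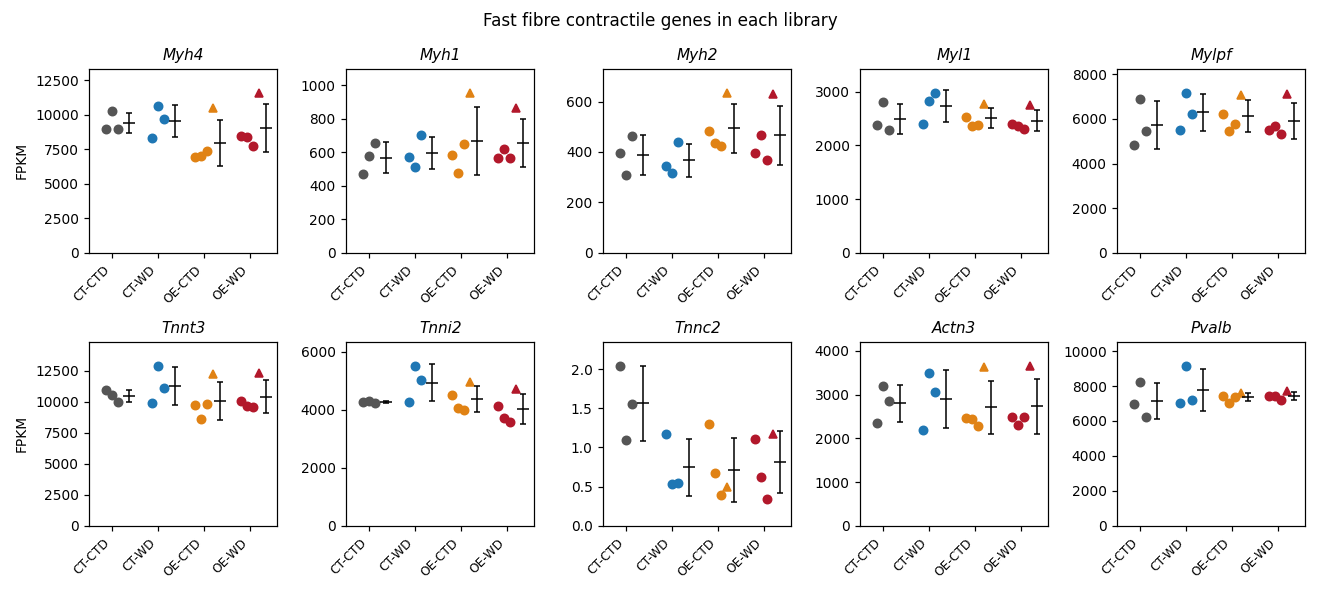
FPKM of each member, with 1 point per library, by group. The black mark is the mean with its SD, and triangles are OE-CTD 4 and OE-WD 4, which hold the highest values of Myh1, Myh2 and Myh4.

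The balance of the heavy chains within a library does not depend on how libraries are scaled to each other. For each library the summed FPKM of Myh4, Myh1, Myh2 and Myh7, the slow heavy chain of type 1 fibres, was set to 100%. These shares are a description, chosen with the values known, and were not tested. Over all 14 libraries Myh4 made up 87.9 ± 2.02% (SD, n = 14), Myh1 6.21 ± 0.973%, Myh2 4.35 ± 0.922% and Myh7 1.53 ± 0.301%.

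The share of Myh4 was lower in OE than in CT on each diet. It was 89.8, 91.1 and 87.5% in CT-CTD 1 to 3 and 85.1, 86.8, 85.8 and 85.3% in OE-CTD 1 to 4. On western diet it was 88.8, 91.9 and 88.5% in CT-WD 1 to 3 and 88.2, 86.9, 87.8 and 87.2% in OE-WD 1 to 4. The libraries of both genotypes did not overlap on either diet, as in log2 CPM 15.5% of all tested genes did not between these groups on control diet and 11.6% on western diet, although on western diet OE-WD 1 (88.2%) lay close to CT-WD 3 (88.5%). OE-CTD 4 and OE-WD 4 lay inside the range of the other libraries of their groups. The group means were 89.5 ± 1.82% in CT-CTD (SD, n = 3), 85.8 ± 0.759% in OE-CTD (SD, n = 4), 89.7 ± 1.88% in CT-WD (SD, n = 3) and 87.5 ± 0.585% in OE-WD (SD, n = 4).

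The share of Myh2 was higher in OE than in CT on each diet, again without overlap. It was 3.97, 2.73 and 4.52% in CT-CTD 1 to 3 and 5.93, 5.39, 4.92 and 5.17% in OE-CTD 1 to 4. On western diet it was 3.68, 2.73 and 4.01% in CT-WD 1 to 3 and 4.13, 4.84, 4.19 and 4.76% in OE-WD 1 to 4. The share of Myh7 was likewise higher in OE, at 1.05 to 1.6% in CT-CTD against 1.65 to 1.91% in OE-CTD, and at 0.933 to 1.46% in CT-WD against 1.59 to 1.83% in OE-WD. The share of Myh1 overlapped between genotypes on each diet, at 4.73 to 6.38% in CT-CTD against 5.88 to 7.78% in OE-CTD and 4.43 to 6.4% in CT-WD against 5.93 to 6.49% in OE-WD. Between diets the shares of Myh4 overlapped in CT (87.5 to 91.1% and 88.5 to 91.9%) and not in OE (85.1 to 86.8% in OE-CTD, 86.9 to 88.2% in OE-WD), and those of Myh2 also separated OE-CTD (4.92 to 5.93%) from OE-WD (4.13 to 4.84%), where in log2 CPM 9.63% of all tested genes did not overlap between diets in CT and 4.08% in OE. For Myh4 this separation is narrow, with 86.8% in OE-CTD 2 and 86.9% in OE-WD 2. The muscle of each library is not stated, and its part in these shares was not tested.

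**Figure D2:**
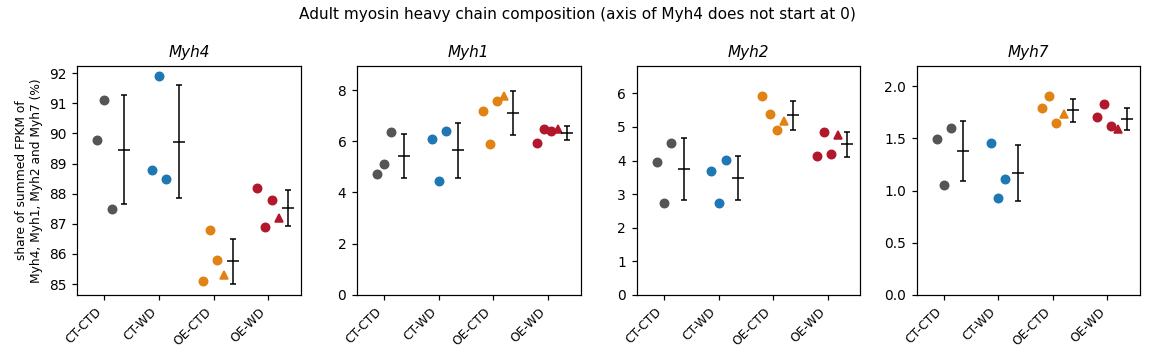
Share of each heavy chain in the summed FPKM of Myh4, Myh1, Myh2 and Myh7, in %, with 1 point per library, by group. The black mark is the mean with its SD, and Myh4 lies at 85.1 to 88.2% in OE and 87.5 to 91.9% in CT.

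Because the shares sum to 100%, the levels themselves were also related to each other across the 14 libraries, in log2 CPM, by 2-sided permutation tests over 3 relations. Myh2 and Myh7 rose and fell together, with a Pearson r of 0.859 (permutation p = 0.00013, adjusted p = 0.00039) and a Spearman rho of 0.755 (permutation p = 0.00272, adjusted p = 0.00816). Without the 2 libraries farthest from the median of Myh2, which are OE-CTD 4 and OE-WD 4, r was 0.7 (adjusted p = 0.036), and within groups it was 0.859. Myh4 and Myh2 had a Pearson r of 0.108 (permutation p = 0.713, adjusted p = 0.822) and a Spearman rho of 0.0198 (permutation p = 0.953, adjusted p = 0.953). Myh4 and Myh7 had a Pearson r of 0.0668 (permutation p = 0.822, adjusted p = 0.822) and a Spearman rho of 0.033 (permutation p = 0.913, adjusted p = 0.953).

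The relations of Myh4 turned with OE-CTD 4 and OE-WD 4. With both left out, a setting added once the data had been seen, r was -0.597 for Myh4 and Myh2 and -0.593 for Myh4 and Myh7 (adjusted p = 0.0432 for each correlation). Without OE-CTD 4 alone r was -0.0532 and -0.092, and without OE-WD 4 alone it was -0.179 and -0.212. Within groups r was 0.544 and 0.474, so the pooled and the within-group correlations of Myh4 differ. All within-group values include OE-CTD 4 and OE-WD 4, and were not calculated without them. Each of these libraries was the highest of its group in Myh4, Myh2 and Myh7, so the positive sign of the within-group values may rest on them. Without the 2 libraries farthest from the median of Myh4, OE-CTD 1 and OE-WD 4, r was -0.0766 and -0.238. With no TMM factor it was -0.324 and -0.262.

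**Figure D3:**
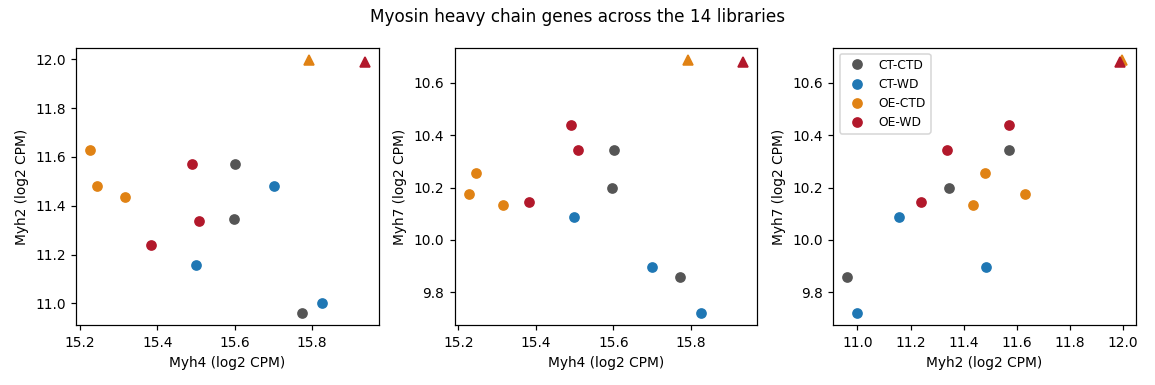
Log2 CPM of Myh4 against Myh2, Myh4 against Myh7 and Myh2 against Myh7, with 1 point per library coloured by group. Triangles are OE-CTD 4 and OE-WD 4, and r over the 14 libraries is 0.108, 0.0668 and 0.859.

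Myl1 (ENSMUSG00000061816) encodes the essential light chain of fast fibres and Mylpf (ENSMUSG00000030672) their regulatory light chain. Myl1 had 2294 to 2981 FPKM, and its group means lay between 2458 ± 197 FPKM in OE-WD (SD, n = 4) and 2734 ± 299 FPKM in CT-WD (SD, n = 3). Mylpf had 4812 to 7174 FPKM, with group means between 5733 ± 1069 FPKM in CT-CTD (SD, n = 3) and 6300 ± 843 FPKM in CT-WD (SD, n = 3). With all libraries, the range of the group means of both light chains was smaller than the SD within at least 1 group. For Myl1 this does not hold without OE-WD 4, which had 2748 FPKM against 2307 to 2408 in OE-WD 1 to 3. With OE-CTD 4 and OE-WD 4 both left out, Myl1 and Myh4 joined Tnni2 at the unadjusted level between OE-WD and CT-WD (17.6% of all genes), with log2 fold changes of -0.21 (adjusted p = 0.267) and -0.22 (adjusted p = 0.25). The log2 fold change of Mylpf for OE-WD against CT-WD was -0.10, and -0.19 with both left out. For OE-CTD against CT-CTD that of Mylpf was 0.10, and 0.03 with both left out.

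Tnnt3 (ENSMUSG00000061723), Tnni2 (ENSMUSG00000031097) and Tnnc2 (ENSMUSG00000017300) encode the fast forms of troponin T, which binds tropomyosin, troponin I, which inhibits contraction, and troponin C, which binds calcium. Tnni2 had 4257, 4296 and 4224 FPKM in CT-CTD 1 to 3 and 4257, 5508 and 5032 FPKM in CT-WD 1 to 3. It had 4500, 4044, 3977 and 4942 FPKM in OE-CTD 1 to 4 and 4129, 3711, 3584 and 4729 FPKM in OE-WD 1 to 4. CT-WD 2 and CT-WD 3 were the highest libraries, OE-WD 2 and OE-WD 3 the lowest, and OE-WD 4 lay above CT-WD 1. Tnni2 had a log2 fold change of -0.29 for OE-WD against CT-WD (standard error 0.116, 95% confidence interval -0.54 to -0.05, adjusted p = 0.218), with 3 of the 4 OE-WD libraries below every CT-WD library. With each library left out in turn it was between -0.38 and -0.21, and its adjusted p lay between 0.0538 (CT-WD 1 left out) and 0.565 (CT-WD 2 left out). Without any 1 of CT-WD 2, CT-WD 3, OE-WD 2 and OE-WD 3 it no longer passed the unadjusted level. In CPM Tnni2 was 5867, 5845 and 5819 in CT-CTD 1 to 3 and 5894, 7512 and 6866 in CT-WD 1 to 3, so that the groups were separated only by the small gap between CT-CTD 1 and CT-WD 1, while in FPKM they overlapped. The interaction of Tnni2 was -0.33 (standard error 0.164, 95% confidence interval -0.68 to 0.02, adjusted p = 0.855), with the diet difference lower in OE than in CT.

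Tnnt3, the most abundant member, had 8579 to 12873 FPKM. Its group means were 10491 ± 483 FPKM in CT-CTD (SD, n = 3), 11263 ± 1519 FPKM in CT-WD (SD, n = 3), 10074 ± 1524 FPKM in OE-CTD (SD, n = 4) and 10399 ± 1306 FPKM in OE-WD (SD, n = 4). With all libraries they differed by less than the SD within CT-WD and within OE-CTD. This does not hold without OE-CTD 4, which had 12202 FPKM against 8579 to 9800 in OE-CTD 1 to 3. The log2 fold change of Tnnt3 for OE-CTD against CT-CTD was -0.06, and -0.16 (adjusted p = 0.402) with OE-CTD 4 and OE-WD 4 both left out. For OE-WD against CT-WD it was -0.12, and -0.21 (adjusted p = 0.288) with both left out.

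Tnnc2 had few reads for a gene of fast fibres. Its counts were 38, 19 and 29 in CT-CTD 1 to 3 and 24, 8 and 9 in CT-WD 1 to 3. They were 25, 15, 7 and 7 in OE-CTD 1 to 4 and 21, 13, 6 and 21 in OE-WD 1 to 4. CT-CTD 1 and CT-CTD 3 were the highest libraries, and CT-CTD overlapped each other group. Tnnc2 had a log2 fold change of -1.11 for OE-CTD against CT-CTD (standard error 0.479, 95% confidence interval -2.13 to -0.09, adjusted p = 0.264). For CT-WD against CT-CTD it was -1.03 (standard error 0.519, 95% confidence interval -2.13 to 0.07, adjusted p = 0.729). Both comparisons share the CT-CTD libraries. For OE-CTD against CT-CTD, Tnnc2 no longer passed the unadjusted level without any 1 of CT-CTD 1, CT-CTD 3, OE-CTD 2, OE-CTD 3 and OE-CTD 4, with log2 fold changes from -1.57 to -0.88 over single libraries left out. With OE-CTD 4 and OE-WD 4 both left out it was -0.98 (adjusted p = 0.32) and did not pass either, while Myh4 did.

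The locus of Tnnc2 overlaps another gene. Tnnc2 lies at chr2:164777161-164779967 on the minus strand of GRCm38, and of its 800 exon bases 592 (74%) are also exon bases of Ube2c, which lies on the opposite strand at chr2:164769898-164778822. Of the 50-base words in Tnnc2 transcripts, 47.9% occur in Ube2c on the opposite strand. Reads in such a stretch can be assigned to 1 gene only where strand is known, and the strand setting of the counting is not given in the sources used here. The part of this overlap in the low count of Tnnc2 was not tested.

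Actn3 (ENSMUSG00000006457) encodes the actinin that anchors thin filaments at the Z-disc of fast fibres. It had 2355, 3193 and 2853 FPKM in CT-CTD 1 to 3 and 2186, 3489 and 3048 FPKM in CT-WD 1 to 3. It had 2463, 2446, 2291 and 3619 FPKM in OE-CTD 1 to 4 and 2480, 2305, 2478 and 3653 FPKM in OE-WD 1 to 4. OE-CTD 4 and OE-WD 4 were the highest libraries and the other OE libraries lay within the CT range. For OE-CTD against CT-CTD the log2 fold change of Actn3 was -0.05 (adjusted p = 0.934), and -0.22 (adjusted p = 0.446) with both of these libraries left out. For OE-WD against CT-WD it was -0.10 (adjusted p = 0.841), and -0.26 (adjusted p = 0.363) with both left out.

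Pvalb (ENSMUSG00000005716) encodes parvalbumin, a calcium buffer that speeds relaxation of fast fibres. It had 6958, 8224 and 6207 FPKM in CT-CTD 1 to 3 and 7004, 9147 and 7193 FPKM in CT-WD 1 to 3. It had 7432, 7036, 7381 and 7612 FPKM in OE-CTD 1 to 4 and 7426, 7421, 7197 and 7730 FPKM in OE-WD 1 to 4. All 8 OE libraries lay inside the CT range, with an SD of 241 FPKM in OE-CTD and 219 in OE-WD against 1019 in CT-CTD and 1186 in CT-WD. OE-CTD 4 and OE-WD 4 did not stand apart in Pvalb as they did in Actn3 and Myh4.

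The genes whose log2 CPM was most like that of Myh4 across the 14 libraries were Mybpc2, the fast form of myosin binding protein C (r = 0.976), Ubqln4 (r = 0.943) and Cmya5 (r = 0.931). Those most like Myh2 were Stom (r = 0.95), Inpp5j (r = 0.912) and Ap1b1 (r = 0.899), and those most like Pvalb were Plcd3 (r = 0.835), Slc43a1 (r = 0.827) and Acbd4 (r = 0.821). These correlations choose the highest of many genes and are given as a description.

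Of 10 other fast fibre genes, among them the calcium pump Atp2a1, edgeR called 1, Mylk4, in 1 comparison. Mylk4, a kinase of the myosin light chain kinase family, had 348, 409 and 357 FPKM in CT-CTD 1 to 3 and 234, 215, 230 and 268 FPKM in OE-CTD 1 to 4, and fell by 0.65 on the log2 scale (standard error 0.104, adjusted p = 0.00627). It was lower in 4 of 4 OE-CTD libraries and was called with each library left out. For OE-WD against CT-WD its log2 fold change was 0.12 (adjusted p = 0.591). For CT-WD against CT-CTD it was -0.45 (adjusted p = 0.394), a difference that DESeq2 called, as it did the interaction of 0.77 (adjusted p = 0.675 in edgeR's test). For OE-WD against OE-CTD the log2 fold change of Mylk4 was 0.33 (standard error 0.0971, unadjusted p = 0.00388 in edgeR's test). It was not called there by edgeR or DESeq2.

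Of 11 slow fibre genes, 0 were called by edgeR in either genotype comparison, while DESeq2 called 2 as higher in each, Myh7 and Atp2a2 in OE-WD and Casq2 and Atp2a2 in OE-CTD. At the unadjusted level 3 were higher in OE-WD than in CT-WD and 4 were higher in OE-CTD than in CT-CTD, with 0 lower, where 16.9% and 15.9% of all tested genes passed that level in either direction. On western diet 3 of the 11 genes had a positive and 8 a negative log2 fold change, with a median of -0.04. On control diet all 11 were positive, with a median of 0.21. Limma called 0 of them. Myh7 had a log2 fold change of 0.50 (adjusted p = 0.137) for OE-WD against CT-WD and of 0.18 (adjusted p = 0.638) for OE-CTD against CT-CTD. The slow calcium pump Atp2a2 had 0.44 (adjusted p = 0.0786) and 0.39 (adjusted p = 0.0881). The slow troponin gene Tnnt1 had -0.21 (adjusted p = 0.442) and 0.27 (adjusted p = 0.328). Of 11 genes of glycolysis, the pathway fast fibres draw on, edgeR called 0 in either genotype comparison. On western diet all 11 were lower in OE, with a median log2 fold change of -0.20, and on control diet 3 were higher and 8 lower, with a median of -0.06. The CT-WD libraries of the former comparison were also higher than CT-CTD in all 11 genes, with a median of 0.11, while OE-WD against OE-CTD had 5 higher and 6 lower, with a median of -0.02. At the unadjusted level 3 were lower in OE on western diet and 1 on control diet, Pgk1 in both (-0.38, adjusted p = 0.101, and -0.30, adjusted p = 0.164), and DESeq2 called 1, Pgk1, on western diet. The 5 tested sarcomeric myosin heavy chains outside the members and the 9 sarcomere genes of all fibres had 0 genes called by edgeR in each of the 5 tests. In the genotype comparisons the former had 3 genes higher at the unadjusted level on western diet and 1 lower on control diet, and the latter 1 lower on western diet and 1 in each direction on control diet. DESeq2 called Myh7 on western diet, and Myh8 (lower) and Mybpc1 (higher) on control diet.

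Among 16 regulators of fibre type, Eya4, a cofactor of transcription factors that drive fast fibre genes, fell in OE on each diet. It had 7.74, 6.38 and 6.25 FPKM in CT-CTD 1 to 3 and 4.23, 3.9, 4.72 and 4.4 FPKM in OE-CTD 1 to 4, with a log2 fold change of -0.66 (adjusted p = 0.00678). On western diet it had 10.1, 7.43 and 9.21 FPKM in CT-WD 1 to 3 and 5.19, 4.78, 4.75 and 4.81 FPKM in OE-WD 1 to 4, with a log2 fold change of -0.87 (adjusted p = 0.0032). The genotypes did not overlap on either diet, and Eya4 was called with each library left out. Myod1, a muscle-determining transcription factor, fell by 0.69 between OE-CTD and CT-CTD (adjusted p = 0.0346), and this call was lost without any 1 of CT-CTD 2, CT-CTD 3 and OE-CTD 1 to 4, with adjusted p up to 0.19. DESeq2 called 3 regulators as lower on western diet (Eya4, Myod1 and Myog). On control diet it called 5, with 3 lower and 2 higher (Eya4, Tbx15, Mafa, Nfatc1 and Myod1). Limma called Eya4 in each and not Myod1. Myog, another muscle transcription factor, had 5.75, 13.9 and 56.2 FPKM in CT-WD 1 to 3 and 4.28 to 6.89 FPKM in OE-WD, with a log2 fold change of -2.17 (adjusted p = 0.0559 in edgeR's test) for OE-WD against CT-WD, and CT-WD 3 was far above the other libraries. In the diet comparisons 0 of the 16 regulators were called by edgeR or DESeq2. At the unadjusted level of edgeR there were 6 in CT (7.28% of all genes) and 1 in OE (4.2%). Limma called 0 of the 15 regulators it covers.

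Markers of other cell types were also compared between genotypes. The 8 endothelial markers, Cdh5 the most abundant, summed to 318 ± 14.2 CPM in CT-CTD (SD, n = 3), 392 ± 14.1 in OE-CTD (SD, n = 4), 340 ± 34 in CT-WD (SD, n = 3) and 430 ± 15.2 in OE-WD (SD, n = 4). Of them 6 were higher in OE-WD than in CT-WD and 5 in OE-CTD than in CT-CTD at the unadjusted level. Of all tested genes 16.9% and 15.9% passed that level in either direction, also to be set beside the tendon and macrophage counts below. At the adjusted level edgeR called 1 in each, Cdh5 (log2 fold change 0.46, adjusted p = 0.0322) and Tek (0.52, adjusted p = 0.0232), as did limma. EdgeR called 0.725% and 2.67% of all genes there. DESeq2 called 4 on western diet (Cdh5, Kdr, Tie1 and Tek) and 2 on control diet (Tie1 and Tek). Each call was lost when certain libraries of its comparison were left out, 5 of 14 libraries for each, with adjusted p up to 0.142 and 0.111. The 6 tendon markers, Fmod the most abundant, summed to 166 ± 67.1 CPM in CT-CTD, 454 ± 130 in OE-CTD, 223 ± 221 in CT-WD and 529 ± 236 in OE-WD, and 0 were called by edgeR or DESeq2, with 1 and 4 higher at the unadjusted level on western and control diet. The 6 macrophage markers, Lyz2 the most abundant, summed to 49.5 ± 17.2, 89.1 ± 20.1, 71.5 ± 35.3 and 80.6 ± 22.4 CPM in the same order, and all 6 were higher at the unadjusted level in OE-CTD than in CT-CTD, with 0 called by edgeR and 2 by DESeq2. Between OE-WD and CT-WD 5 were higher and 1 lower, with 0 at the unadjusted level and 0 called by edgeR or DESeq2. None of these lists had a marker at 0 in all libraries. Their part in the shares of the heavy chains and in the members' levels was not tested. Of the 5 skeletal muscle markers, 0 were called by edgeR or DESeq2 in each test and 0 passed the unadjusted level.

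Myh1, Myh2 and Myh4 lie side by side on chromosome 11 (GRCm38), Myh2 from 67171027 to 67197517, Myh1 from 67200052 to 67224575 and Myh4 from 67238029 to 67260446, all on the plus strand. Tnni2 (142441808 to 142444410) and Tnnt3 (142498836 to 142516009) are near each other on chromosome 7, which also holds Mylpf (127208890 to 127214298), all on the plus strand. On the minus strand lie Myl1 (chromosome 1, 66924295 to 66945404), Actn3 (chromosome 19, 4861223 to 4877909) and Pvalb (chromosome 15, 78191114 to 78206400). The heavy chains also share sequence with other genes, and 50-base words found in another gene on the same strand made up 25.4% of Myh1, 22.9% of Myh2 and 18.9% of Myh4. Myh2 was the first partner of Myh1 (18.7%), and Myh1 that of Myh2 (16.7%) and of Myh4 (10.6%). How reads matching several genes were counted is not given in the sources used here, so the split of such reads between the heavy chains is uncertain. Of the other members, 11.7% of Myl1 and 0.0701% of Actn3 were shared in this way, and 0% of Mylpf, Tnnt3, Tnni2, Tnnc2 and Pvalb. Words found in a gene on the opposite strand made up 6.63% of Myh1, 2.69% of Myh2 and 0.989% of Myh4. Of the exon bases of Myh1, 8.11% are also exon bases of the antisense gene Myhas. For Myh2 it is 3.32%, with the antisense gene 9430073C21Rik.

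The promoters of the 3 heavy chains of chromosome 11 are shown because these genes lie side by side and share a run of 20 bases. The 250 bases before the start that RefSeq lists for each gene on GRCm38.p6 are given 5′ to 3′, and capitals mark the shared run, which begins 165, 130 and 163 bases before the RefSeq start of Myh1, Myh2 and Myh4. The RefSeq start of Myh2 is that of the deposited table, while that of Myh1 lies inside the deposited gene and that of Myh4 before it. The windows are chr11:67199852-67200101, chr11:67170777-67171026 and chr11:67237562-67237811, all on the plus strand.
Myh1: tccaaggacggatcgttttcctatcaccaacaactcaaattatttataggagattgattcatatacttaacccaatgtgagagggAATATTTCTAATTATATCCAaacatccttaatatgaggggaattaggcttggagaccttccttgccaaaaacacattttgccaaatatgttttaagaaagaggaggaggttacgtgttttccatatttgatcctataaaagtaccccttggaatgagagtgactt
Myh2: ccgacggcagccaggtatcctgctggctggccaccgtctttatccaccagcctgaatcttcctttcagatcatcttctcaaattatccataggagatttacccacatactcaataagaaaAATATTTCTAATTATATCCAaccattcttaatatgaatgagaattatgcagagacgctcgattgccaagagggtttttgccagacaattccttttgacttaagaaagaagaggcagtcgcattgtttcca
Myh4: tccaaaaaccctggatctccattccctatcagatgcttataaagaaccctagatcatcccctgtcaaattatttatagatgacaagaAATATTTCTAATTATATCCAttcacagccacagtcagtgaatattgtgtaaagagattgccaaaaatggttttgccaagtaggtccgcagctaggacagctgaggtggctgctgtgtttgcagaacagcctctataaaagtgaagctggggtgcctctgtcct
The run was found in 3 of 32851 promoter windows (0.00913%), those of these genes.

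RefSeq windows were found for 7 of the 10 members, as 8 windows, and for none of Tnnt3, Tnni2 and Actn3. Motifs were searched on both strands. TATAAA was found in 3 of the 8 windows (Myh1, Myh4 and Myl1) and in 12.4% of all windows. The E-box CANNTG, bound by proteins such as Myod1, was in 5 windows (66.2% of all windows), and TCAGGTT, the MEF3 motif, in 0 (3.49%). TGCTGA, the core bound by large Maf proteins, was in 2 windows, both of Pvalb (16.1%). The MEF2 consensus was in 3 windows, those of Myh1, Myh4 and 1 of Pvalb (2.92%), and the CArG box in 1, that of Myh4 (1.47%). The motifs TATAAA and MEF2 consensus can overlap. A match describes letters in a window and is not shown to be a bound site.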

How the data were processed

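The authors deposited counts, reads assigned to each gene, and FPKM, counts scaled to gene length and a library total. The submitters' processing notes name HISAT2 2.0.5, featureCounts 1.5.0-p3 and mm10, and strand and multi-mapping settings are not given in the sources used here. Counts were filtered with filterByExpr (removing 0.0467% to 0.0694% of a library's counts), scaled by TMM and tested with edgeR 4.0.16 (quasi-likelihood, R 4.3.3) in 1 model of the 4 groups. P-values were adjusted by Benjamini-Hochberg over all 15458 tested genes in each comparison. DESeq2 1.42.0, limma 3.58.1 on log2(FPKM + 1) and log2(FPKM + 0.1) for genes with a mean FPKM of at least 1, other scaling, no filter, the 2 compared groups alone, a replicate block, exchanged group names and libraries left out were alternatives. Log2 CPM used a prior count of 2. Relations used 100000 permutations. Gene positions are those of the deposited table, which GENCODE M21 shares for 9 of the 10 members (Actn3 differs). Exon overlaps and 50-base words came from GENCODE M21, and promoters from RefSeq.

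Replicate numbers were checked as pairs by correlating deviations from group means across genes. They gave 0.385, 0.123 and 0.203 for CT on both diets, all over 0.1. Libraries with different numbers were not correlated for comparison, and the labels name no pairs. CT libraries with the same number are therefore not shown to be pairs, and the main model used no pairing. The replicate block, an alternative, used the number in every comparison, also where libraries share nothing else, with correlations of 0.0711 to 0.338 between OE diets, -0.23 to -0.0647 between genotypes on western diet and -0.122 to 0.0465 on control diet.

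Fold changes are named for members at an unadjusted p under 0.05, or else the member with the smallest p. The genes most like a member are the 3 with the highest correlation. The members and lists were chosen with earlier results of these data known. Of the marker lists not described above, smooth muscle (4 genes), adipocyte (6), Schwann (5), epidermis (5) and blood (4) had 0 genes called by edgeR in each of the 5 tests. Over these tests the unadjusted level was passed by 0 smooth muscle, Schwann and blood markers and 3 times each by adipocyte and epidermis markers, and DESeq2 called 1, Lep. Myh13 and Myh15 did not pass the filter, and for Aldoa the more abundant of 2 entries was used.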

Additional observations from a re-analysis of the deposited data

Results flagged for a closer look

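Myh4 in OE-CTD 4 lay far from the other libraries of its group, at 56750 CPM against 38331 to 40776 CPM in OE-CTD 1 to 3. Actn3 in OE-CTD 4 had 9436 CPM, against 6096 to 6557 CPM in OE-CTD 1 to 3. Actn3 in OE-WD 4 had 9509 CPM, against 6106 to 6587 CPM in OE-WD 1 to 3. In each case the gap to the nearest library was 0.859 to 0.867 of the whole range of the group. Chance singles out about 1 in 20 sets of 4 values taken alone. Of 28 such sets examined, 3 were singled out, all in libraries that also had the highest mitochondrial shares. The sets are members and heavy chain shares in the same OE-CTD and OE-WD libraries, so they are not independent. The 3 can therefore not be set against 1 in 20.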

How the results depend on the processing

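Of the 5 counts of members called, 4 were 0 in every setting tried, and that of OE-CTD against CT-CTD was 1 (Myh4) with OE-CTD 4 and OE-WD 4 both left out, a setting added once the data had been seen, and 0 in the other 10 settings. With each library left out in turn all 5 stayed at 0 (0 to 0). The number of members at an unadjusted p under 0.05 was less steady, and the cause was not tested. Between CT-WD and CT-CTD it was 0, and became 1 with no TMM factor, 1 with no filter, 1 with group names exchanged, 1 with both libraries out and 0 to 2 with single libraries out. With the replicate block it was 4 (Mylpf, Tnni2, Tnnc2, Pvalb, smallest adjusted p = 0.234). Between OE-WD and OE-CTD it was 0, and became 1 with no TMM factor, 2 with the block, 1 with names exchanged and 0 to 1 with single libraries out. Between OE-WD and CT-WD it was 1, and became 0 with a fold change over 1.5 required, 2 with no TMM factor, 2 with no filter, 0 with the 2 groups alone, 0 with names exchanged, 3 with both libraries out and 0 to 2 with single libraries out. Between OE-CTD and CT-CTD it was 1, and became 2 with no TMM factor, 2 with no filter, 0 with each limma setting, 2 with the block (whose libraries share only a number), 0 with names exchanged and 0 to 1 with single libraries out, and with both libraries out the 1 member was Myh4 in place of Tnnc2. For the interaction it was 0, and became 1 with DESeq2, 1 with no TMM factor, 4 with the block (smallest adjusted p = 0.232), 1 with both libraries out and 0 to 2 with single libraries out. The members' medians moved by less than 0.165, the SD between replicates of the members' median log2 CPM, in every setting, and with single libraries out ran from -0.0005 to 0.185, -0.12 to 0.04, -0.20 to -0.003, -0.04 to 0.07 and -0.19 to 0.08 in the order above. Exchanging the names CT-WD and OE-CTD gives the group sizes of the study's legend and makes each diet comparison take the values of a genotype comparison and the reverse, so that the log2 fold change of Myh4 for OE-WD against OE-CTD reversed to -0.0858, the value of OE-WD against CT-WD under the labels. The correlations of Myh4 with Myh2 and Myh7 reversed to -0.324 and -0.262 with no TMM factor, to -0.597 and -0.593 with both libraries out, to -0.0532 and -0.092 without OE-CTD 4 and to -0.179 and -0.212 without OE-WD 4, with ranges of -0.179 to 0.288 and -0.212 to 0.291 over single libraries out and of -0.597 to 0.544 and -0.593 to 0.474 over the other settings. That of Myh2 and Myh7 was between 0.813 and 0.922 with single libraries out and between 0.7 and 0.865 in the other settings. Tnnc2 has no value with limma, since its mean FPKM is under 1, and the setting of 2 groups cannot give an interaction. The number of all genes called also moved, from 0, 1, 112, 413 and 0 to 29, 1, 559, 778 and 3 with DESeq2, to 93, 5, 560, 760 and 29 with no filter, to 13, 2, 1, 14 and 1 with the block and to 0, 1, 10, 214 and 0 with no TMM factor. With the 2 groups alone it was 0, 1, 4 and 596. With single libraries out, OE-WD against CT-WD ran from 4 without OE-WD 2 to 1499 without CT-WD 1, OE-CTD against CT-CTD from 77 without CT-CTD 3 to 615 without CT-WD 1, and CT-WD against CT-CTD up to 42 without CT-WD 1.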
